A study of Mus musculus with 4 samples.

Results

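The TAM receptor genes Mertk, Axl and Tyro3, the ligand genes Gas6 and Pros1, the stabilin genes Stab1 and Stab2, and the phosphatidylserine receptor gene Timd4 were followed in mouse bone marrow stem cells. They are 8 of the 23450 genes listed. They were taken by name, and Mertk and Stab2 were chosen by their reads, for being read in 1 group only, so the group difference of these 2 genes is a description and carries no test. Long-term hematopoietic stem cells (LT-HSC, 2 libraries) had been sorted as CD48-, CD150+, CD34- and CD9 high, and short-term cells (ST-HSC, 2 libraries) as CD48-, CD150+ and CD9 low, with no CD34 gate given. Each library came from 2000 cells. The labels name no strain, age, genotype or treatment and do not state whether the replicate libraries stem from different animals, so a p-value here reflects only how far these libraries spread, a spread that may be technical. LT-HSC are known to sustain blood formation for the life of the animal and ST-HSC for a limited time. The comparison of LT-HSC with ST-HSC asked how these stem cells differ in their transcripts. They were separated by the tetraspanin CD9, and the CD34- gate was given for LT-HSC only.

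Dying cells expose phosphatidylserine on their surface. Gas6 and protein S, the product of Pros1, bind this lipid through vitamin K-dependent carboxylated domains and bridge it to the receptor tyrosine kinases Tyro3, Axl and Mer, a system that drives the uptake of apoptotic cells and restrains innate immune signalling. Tim-4, encoded by Timd4, binds phosphatidylserine directly. The stabilins are large scavenger receptors with fasciclin and EGF-like domains, known from sinusoidal endothelium and, for stabilin-1, from macrophages, and they take up modified proteins and also bind phosphatidylserine. In bone marrow, clearance of dying cells is chiefly the work of macrophages.

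The promoters of 3 genes are shown because Mertk was read in LT-HSC only and Stab1 and Stab2 almost only in ST-HSC. All 8 genes had an entry in the RefSeq promoter table (GRCm38.p6, a later build than the mm9 named in the submitters' processing notes). The 250 bases before the start lie at chr2:128698665-128698914 (plus strand) for Mertk, chr14:31168642-31168891 (minus strand) for Stab1 and chr10:87007943-87008192 (minus strand) for Stab2. They are printed 5′ to 3′ on the gene's strand, with capitals marking any match, on either strand, to 4 motifs of blood or general factors. The letters searched were AGATAA for GATA factors, GAGGAA for Ets factors, TGTGGT for Runx factors and GGGCGG for Sp1.
Mertk: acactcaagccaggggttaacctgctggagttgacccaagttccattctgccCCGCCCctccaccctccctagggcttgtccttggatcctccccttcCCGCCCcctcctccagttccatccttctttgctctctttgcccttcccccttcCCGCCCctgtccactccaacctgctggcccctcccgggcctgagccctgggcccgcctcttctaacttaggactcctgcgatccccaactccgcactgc
Stab1: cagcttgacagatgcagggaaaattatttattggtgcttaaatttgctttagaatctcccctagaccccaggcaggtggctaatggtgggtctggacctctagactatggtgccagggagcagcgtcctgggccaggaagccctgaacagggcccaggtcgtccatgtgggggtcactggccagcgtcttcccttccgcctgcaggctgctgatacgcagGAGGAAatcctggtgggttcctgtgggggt
Stab2: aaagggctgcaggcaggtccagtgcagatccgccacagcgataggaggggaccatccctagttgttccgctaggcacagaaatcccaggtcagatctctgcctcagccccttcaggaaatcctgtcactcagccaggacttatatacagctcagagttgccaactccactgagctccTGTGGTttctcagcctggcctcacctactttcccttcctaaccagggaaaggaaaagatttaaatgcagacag
The Mertk promoter held 3 Sp1 matches, all on the opposite strand, at 198, 152 and 99 bases before the start. The Stab1 promoter held 1 Ets match at 30 bases and the Stab2 promoter 1 Runx match at 73 bases before the start. Among 32851 promoters cut in the same way, 32.7% held the Sp1 letters, 23.3% the Ets letters, 14% the Runx letters and 9.99% the GATA letters. The same search found 3 Sp1 matches for Tyro3, 4 for Gas6 and 5 for Pros1, some overlapping, then 1 Sp1 and 1 Ets match for Axl, and no match for Timd4. A match is a description of letters and not a binding site. G and C made up 63.6% of the Mertk window, 57.2% of the Stab1 window and 53.2% of the Stab2 window.

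The depth was 13079541 to 16158149 reads per library by the authors' totals, and levels are given as CPM, the reads of a gene scaled to a fixed number of those library reads. A floor of 3 reads corresponds to 0.186 to 0.229 CPM, and intervals and floors reflect counting error alone, because amplification copies molecules. LT-HSC 1 had a read in 14548 genes, against 13275 to 13341 in the other libraries, and it had 844 genes with 1 to 3 reads, against 462 to 604. Across genes, Pearson's r of log2(CPM + 1) was 0.736 within LT-HSC, 0.797 within ST-HSC and 0.714 to 0.763 between groups, and genes are not independent replicates. Cd9 stood at 134 and 124 CPM in the LT-HSC libraries and at 100.3 and 113 CPM in the ST-HSC libraries. Cd34 was read in the libraries sorted as CD34-, at 134 and 201 CPM, against 324 and 430 CPM in ST-HSC. Slamf1, the CD150 gene, was at 112 and 138 CPM against 65.8 and 108 CPM. Cd48, whose protein both gates exclude, was read 247 and 575 times in the ST-HSC libraries against 2 times in either LT-HSC library. By limma, 0 of 12569 tested genes passed at an adjusted p under 0.05 (0% in the background), while 362 higher and 453 lower genes passed at an unadjusted p under 0.05 (2.88% and 3.6%). With limma-voom on recovered reads 0 passed the adjusted and 586 the unadjusted threshold.

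Among the receptor kinases, Mertk was read in LT-HSC and not in ST-HSC. It had 197 reads (15.1 CPM) in LT-HSC 1 and 265 reads (16.4 CPM) in LT-HSC 2. Neither ST-HSC library had a read. The LT-HSC libraries lay close together, 1.09-fold apart, at a mean of 15.7 ± 0.947 CPM (SD, n = 2), and the groups did not overlap because of how the gene was picked. Against a floor of 3 reads per library, Mertk was at least 78.3-fold higher in LT-HSC, and at least 75.0-fold or 81.7-fold with LT-HSC 1 or LT-HSC 2 alone. In the tested genes, 137 (1.09%) had at least 3 reads in both LT-HSC libraries and none in ST-HSC, and 69 (0.549%) the reverse. In bulk libraries, fewer cells that express a gene and less of its RNA per cell cannot be told apart, which holds for every value here.

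Axl, the receptor for which Gas6 is the known ligand, was read in 3 of the 4 libraries. It had 479 reads (36.6 CPM) in LT-HSC 1, 339 (21.0 CPM) in LT-HSC 2, none in ST-HSC 1 and 459 (30.9 CPM) in ST-HSC 2. The groups overlapped, and the ST-HSC libraries differed far more from each other than the LT-HSC libraries did. ST-HSC 2 was at least 155-fold higher than ST-HSC 1 against the floor, whereas the LT-HSC libraries were 1.75-fold apart. The log2 fold change was 2.35 ± 1.84 (SE), with a limma adjusted p = 0.898, and it was -0.15 without ST-HSC 1 and 4.85 without ST-HSC 2.

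Tyro3, the receptor kinase best known from the nervous system and from platelets, was read almost entirely in 1 library. It had 719 reads (44.5 CPM) in LT-HSC 2, 1 read (0.0765 CPM) in LT-HSC 1 and none in either ST-HSC library. LT-HSC lay above ST-HSC in both libraries only by that single read. LT-HSC 2 exceeded LT-HSC 1 by 582-fold, with an exact 95% interval from 104 to 23020 that covers counting error. Tyro3 reached 1 CPM in 1 library and so was not among the tested genes. With no filter on low values its log2 fold change was 2.81 ± 2.04 (SE), with a limma adjusted p = 0.841.

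**Figure D1:**
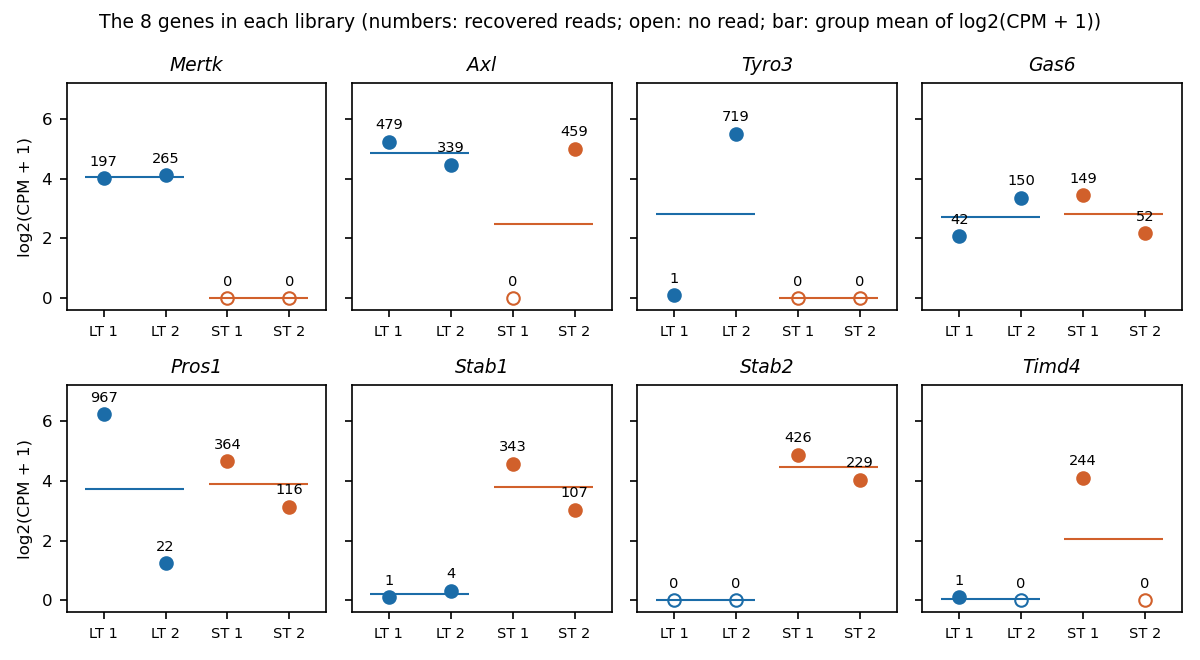
Level of each of the 8 genes as log2(CPM + 1) on the vertical axis in the 2 LT-HSC (blue) and 2 ST-HSC (orange) libraries, with recovered reads beside each point, open points for no read and bars at group means. Mertk was read in the LT-HSC libraries only (197 and 265 reads) and Stab2 in the ST-HSC libraries only (426 and 229 reads), while Axl, Tyro3 and Timd4 were high in some libraries and at 0 or 1 read in the other library of the same group.

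The ligand genes were read in all 4 libraries and showed no order by group. Gas6, the ligand that binds all TAM receptors, had 42 reads (3.21 CPM) in LT-HSC 1, 150 (9.28 CPM) in LT-HSC 2, 149 (9.90 CPM) in ST-HSC 1 and 52 (3.50 CPM) in ST-HSC 2. Each group held 1 higher and 1 lower library, 2.89-fold apart in LT-HSC and 2.83-fold apart in ST-HSC. The means were 6.25 ± 4.29 CPM and 6.70 ± 4.52 CPM (SD, n = 2 each), and the log2 fold change was -0.09 ± 1.15 (SE; limma adjusted p = 0.9998).

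Pros1, which encodes the anticoagulant protein S, a ligand of Tyro3 and Mer, varied most within LT-HSC. It had 967 reads (73.9 CPM) in LT-HSC 1, 22 (1.36 CPM) in LT-HSC 2, 364 (24.2 CPM) in ST-HSC 1 and 116 (7.82 CPM) in ST-HSC 2. Both ST-HSC libraries fell between the LT-HSC libraries, which were 54.3-fold apart. For comparison, among 11371 tested genes with more than 3 reads in both LT-HSC libraries, the median fold between them was 1.57 and the 90th percentile 6.70. The log2 fold change was -0.16 ± 1.87 (SE; limma adjusted p = 0.9998), and it was -2.66 without LT-HSC 1 and 2.33 without LT-HSC 2. The summed level of 11 stromal marker genes was 74.2 CPM in LT-HSC 1, 7.18 CPM in LT-HSC 2, and 5.45 and 15.6 CPM in ST-HSC 1 and 2. In LT-HSC 1, Col1a2 (38.8 CPM) and Cxcl12 (23.8 CPM) made up most of it. The stromal genes Lepr, Lum and Adipoq had no read in any library. Outside LT-HSC 1 the order of these sums differed from that of Pros1, and their part in the Pros1 values was not tested.

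The stabilin genes were read on the ST-HSC side. Stab2, known as a hyaluronan and heparin clearance receptor of sinusoids, had 426 reads (28.3 CPM) in ST-HSC 1, 229 (15.4 CPM) in ST-HSC 2 and none in either LT-HSC library. Its ST-HSC mean was 21.9 ± 9.11 CPM (SD, n = 2). It was at least 105-fold higher in ST-HSC against the floor, and at least 136-fold or 74.4-fold with ST-HSC 1 or ST-HSC 2 alone. This absence from LT-HSC is what the gene was picked for.

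Stab1, the stabilin also known from tissue macrophages, was not picked for being read in 1 group only. Stab1 does belong to a set of genes proposed from these data. It had 1 read (0.0765 CPM) in LT-HSC 1, 4 reads (0.248 CPM) in LT-HSC 2, 343 (22.8 CPM) in ST-HSC 1 and 107 (7.21 CPM) in ST-HSC 2. Both LT-HSC libraries lay below both ST-HSC libraries, which holds for 17.5% of tested genes. The LT-HSC mean was 0.162 ± 0.121 CPM and the ST-HSC mean 15.0 ± 11.0 CPM (SD, n = 2 each). Summed over libraries, 450 reads in ST-HSC against 5 in LT-HSC gave a ratio of 88.1 per library read, with an exact 95% counting interval of 37.5 to 273. The ratio was 42.2 (17.5 to 133) with ST-HSC 2 alone and 133 (56.6 to 413) with ST-HSC 1 alone. The log2 fold change was -3.59 ± 1.09 (SE). Stab1 entered the test only through ST-HSC, where it was high, and did not pass over all tested genes (limma adjusted p = 0.716). Just outside the picking rule, then, stood Stab1, with 1 and 4 reads in the group where Stab2 had none.

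Both stabilin genes were higher in ST-HSC 1 than in ST-HSC 2, Stab1 by 3.16-fold and Stab2 by 1.83-fold. The median fold between the ST-HSC libraries was 1.44 and the upper quartile 2.24 over 11417 tested genes with more than 3 reads in both. Timd4, which encodes the macrophage phosphatidylserine receptor Tim-4, had 244 reads (16.2 CPM) in ST-HSC 1, 1 read (0.0765 CPM) in LT-HSC 1 and none in LT-HSC 2 or ST-HSC 2. It was thus high in 1 library, at least 80.2-fold above the other ST-HSC library against the floor. Timd4 was not among the tested genes, and with no filter its log2 fold change was -2.0 ± 1.55 (SE; limma adjusted p = 0.841).

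Counted together, 4 of the 8 genes had groups that did not overlap, which were Mertk, Tyro3, Stab1 and Stab2. Over all tested genes the share was 33.7%, and over the 16678 genes with a read in any library it was 28.4%. Without the picked genes, 2 of 6 did not overlap, a share near that background. Those 6 also belong to a set proposed from these data, so their share is no test. Of the 8 genes, 6 passed the filter on low values and Tyro3 and Timd4 did not. Mertk and Stab2 passed it only through the group where they were read, and so did Stab1. Only Gas6 and Pros1 had more than 3 reads in all 4 libraries.

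Several of the genes had large gaps between libraries of the same group. Of the 7 genes that reached 10 CPM in any library, 3 (Axl, Tyro3 and Timd4) had at most 1 read in the other library of that group. Among the 11968 genes that reached 10 CPM in any library, 7.68% showed such a gap. These limits were chosen after the values were seen, and the genes were proposed from these data, so the share describes them and is no test.

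**Figure D2:**
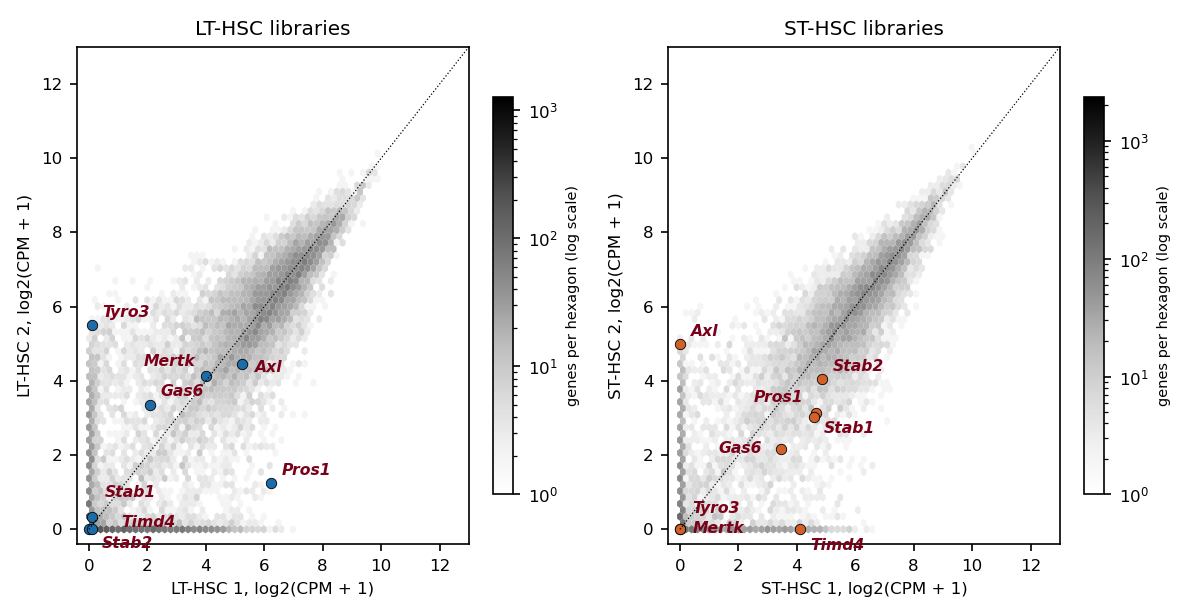
Level of every gene with a read in any library as log2(CPM + 1), LT-HSC 1 against LT-HSC 2 (left) and ST-HSC 1 against ST-HSC 2 (right), in grey hexagons shaded by number of genes, with the 8 genes named and the dotted line marking equal levels. Mertk and Axl in LT-HSC and Stab2 in ST-HSC lie near the line, whereas Tyro3 and Pros1 in LT-HSC and Axl and Timd4 in ST-HSC lie far from it.

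Levels of different genes were set side by side only per kilobase of the longest protein-coding transcript in GENCODE M21, which runs from 2173 bases for Timd4 to 8228 bases for Stab2. In LT-HSC the mean level per kilobase fell in the order Pros1 (11.4 CPM per kilobase), Axl (6.75), Tyro3 (5.0), Mertk (3.66), Gas6 (2.45), Stab1 (0.0203), Timd4 (0.0176) and Stab2 (no read). Pros1 and Tyro3 spanned most of this order within the group, at 22.4 and 0.412 and at 0.0171 and 9.98 CPM per kilobase in LT-HSC 1 and 2, so their places are not separated from their neighbours. Axl, at 8.59 and 4.92, stood above Mertk, at 3.50 and 3.81, in both LT-HSC libraries. Gas6, at 1.26 and 3.64, overlapped with Mertk, and Stab1, Timd4 and Stab2 rested on 0 to 4 reads a library and have no order. In ST-HSC the order of mean levels per kilobase was Pros1 (4.85), Timd4 (3.73), Axl (3.63), Stab2 (2.66), Gas6 (2.63) and Stab1 (1.88), with no read of Mertk or Tyro3. Stab2 exceeded Stab1 per kilobase in ST-HSC 1 (3.44 and 2.85) and in ST-HSC 2 (1.88 and 0.902). All neighbours in the ST-HSC order overlapped in their library values.

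The libraries were read against markers of other cell types that carry these receptors. The 17 macrophage markers summed to 324 and 225 CPM in the LT-HSC libraries and to 334 and 251 CPM in the ST-HSC libraries, with 7 to 10 of them read in a library. Lyz2 was the highest of them in each library, at 153 and 146 CPM in LT-HSC against 146 and 140 CPM in ST-HSC. Spic was at 93.0 and 15.2 against 65.5 and 22.6 CPM, and Vcam1 at 5.12 and 22.5 against 44.9 and 22.5 CPM. The macrophage genes Siglec1, Cd5l and Vsig4 had no read in any library. Emr1, which encodes F4/80, was read in LT-HSC 1 only, at 3.13 CPM. The complement genes C1qb and C1qc were read in LT-HSC 1 (16.7 and 11.8 CPM) and ST-HSC 1 (24.0 and 13.6 CPM), and were at 3.84 CPM or lower in LT-HSC 2 and ST-HSC 2. C1qa was read in ST-HSC 2 only, at 5.59 CPM. Cd163 was at 0 and 16.6 CPM in LT-HSC against 5.65 and 16.8 CPM, and Csf1r at 33.0 and 9.04 against 18.1 and 39.0 CPM, so these markers had no common order over the libraries. Their part in the Timd4 reads of ST-HSC 1 was not tested.

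The 13 sinusoidal endothelium markers summed to 801 and 777 CPM in LT-HSC and 733 and 591 CPM in ST-HSC, and their part in the stabilin values was not tested. Of the 10 tested, 4 lay above ST-HSC in both LT-HSC libraries and 2 below (16.2% and 17.5% of all tested genes). The endothelial genes Plvap and Lyve1 had no read in any library. Cdh5, the VE-cadherin gene, was at 2.45 CPM in LT-HSC 1, at 2.33 and 9.84 CPM in ST-HSC 1 and 2, and had no read in LT-HSC 2. Fabp4 was at 18.4 and 1.24 CPM in LT-HSC against 26.6 and 22.6 CPM. On the LT-HSC side, Kdr, the VEGF receptor gene, was at 30.3 and 14.9 CPM against 10.4 and 8.49 CPM, Sox18 at 17.8 and 13.7 against 7.51 and 0 CPM, and Clec4g at 8.26 and 26.0 against 6.31 and 0 CPM. Several of the other genes on this list, such as Tek, Egfl7 and Emcn, are also expressed by stem cells. The 10 megakaryocyte markers summed to 737 and 645 CPM in LT-HSC and 751 and 599 CPM in ST-HSC. Among them Itga2b was at 2.45 and 5.01 CPM against 152 and 105 CPM. The 7 B cell markers summed to 130 to 219 CPM, of which Cd79b made up most, with no read of Pax5 in any library. The 9 stem cell markers summed to 3351 and 3452 CPM in LT-HSC and 2357 and 2448 CPM in ST-HSC, and all 9 were read in every library.

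**Figure D3:**
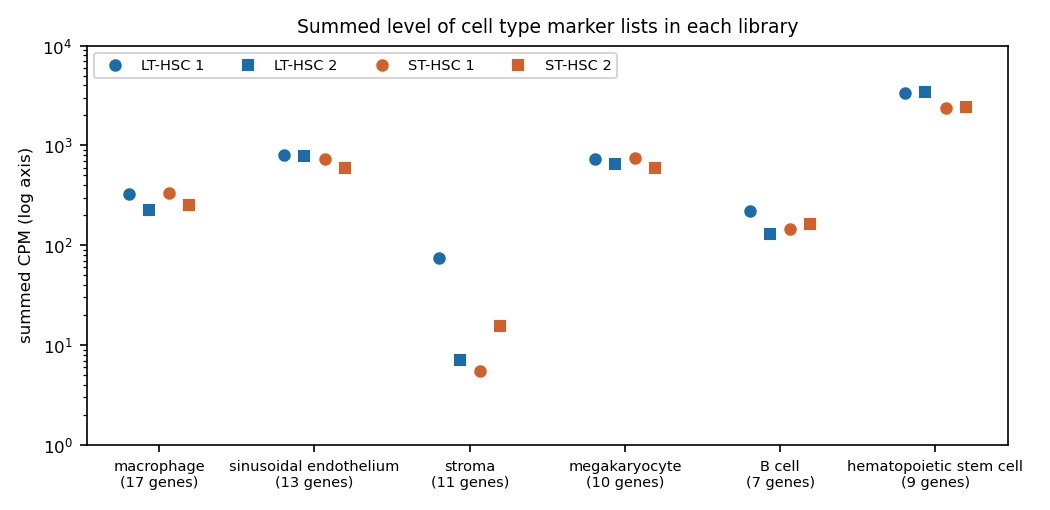
Summed CPM (logarithmic vertical axis) of 6 lists of cell type markers in each library, LT-HSC in blue and ST-HSC in orange, replicate 1 as circles and replicate 2 as squares. Stromal markers stand highest in LT-HSC 1 (74.2 CPM), and macrophage markers stand higher in LT-HSC 1 and ST-HSC 1 than in the libraries numbered 2.

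The other genes of apoptotic cell clearance were taken as lists. Of 17 tested receptors and bridging proteins, 0 passed the adjusted limma test, 1 was higher and 1 lower at an unadjusted p under 0.05 (6.48% of all tested genes in either direction), and the median log2 fold change was 0.02 against -0.01 over all tested genes. The lower gene was Havcr2, which encodes Tim-3, a relative of Tim-4. It had no read in LT-HSC 1, 0.743 CPM in LT-HSC 2 and 33.2 and 33.6 CPM in the ST-HSC libraries. Both LT-HSC libraries lay below both ST-HSC libraries, which holds for 17.5% of tested genes. Havcr2 entered the test only through ST-HSC, where it was high. Its log2 fold change was -4.70 ± 1.04 (SE; limma adjusted p = 0.716). The higher gene was Jmjd6, once proposed as a phosphatidylserine receptor and now known as a nuclear oxygenase, at 221 and 272 CPM against 150 and 128 CPM (log2 fold change 0.82 ± 0.26 SE, adjusted p = 0.723). Itgb5, the integrin beta 5 subunit that binds the bridging protein Mfge8, was at 2.52 and 11.2 CPM in LT-HSC against 0 and 1.89 CPM (adjusted p = 0.860). Mfge8 itself stood at 108 CPM in both LT-HSC libraries and at 99.9 and 114 CPM in ST-HSC.

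The engulfment machinery, which turns receptor signals into actin rearrangement, had 18 tested genes. By limma 0 passed the adjusted threshold and 0 the unadjusted one, with a median of 0.04. The smallest unadjusted p belonged to Elmo2, a partner of the Dock exchange factors, at 100.3 and 187 CPM in LT-HSC against 14.8 and 84.9 CPM in ST-HSC (adjusted p = 0.810). Trio, a guanine nucleotide exchange factor, was at 5.05 and 19.1 CPM against 49.0 and 15.2 CPM, and Elmo1 at 172 and 243 CPM against 231 and 275 CPM, and in both genes the groups overlapped.

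Genes that expose or hide phosphatidylserine, or signal against uptake, had 12 tested members, of which 0 passed the adjusted test and 1 was lower at an unadjusted p under 0.05 (3.6% of all tested genes), with a median of 0.17. Xkr8, the scramblase that exposes the lipid during apoptosis, had 14.1 and 24.3 CPM in LT-HSC against 0.332 and 3.98 CPM (log2 fold change 2.92 ± 1.19 SE, limma adjusted p = 0.767). Sirpa, the receptor of the restraint signal Cd47, varied within LT-HSC, with 85.1 CPM in LT-HSC 1 and 0.990 CPM in LT-HSC 2 against 149 and 68.9 CPM in ST-HSC.

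The enzymes that carboxylate Gas6 and protein S and further proposed Mer ligands had 5 tested members. By limma 0 passed either threshold, and the median was 0.11. Ggcx, the gamma-glutamyl carboxylase, was at 11.5 and 1.67 CPM in LT-HSC against 9.04 and 42.2 CPM, with overlap. Vkorc1l1, a vitamin K reductase, was at 55.7 and 52.4 against 44.5 and 39.0 CPM, and Lgals3, which encodes galectin-3, at 55.1 and 41.5 against 33.8 and 29.3 CPM. The groups of both genes did not overlap, with LT-HSC above, which holds for 16.2% of tested genes. Their adjusted p-values by limma were 0.977 and 0.928. With Vkorc1, at 159 and 143 against 140 and 138 CPM, 3 of the 5 tested members lay above ST-HSC in both LT-HSC libraries.

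Proteases that shed the receptors, and signalling genes downstream of them, had 14 tested members, with 0 past the adjusted test, 2 higher and 0 lower at an unadjusted p under 0.05 (2.88% and 3.6% of all tested genes), and a median of -0.06. Pik3r1, a regulatory subunit of PI3-kinase, was at 153 and 323 CPM in LT-HSC against 79.7 and 107 CPM in ST-HSC (1.26 ± 0.44 SE, limma adjusted p = 0.754). Src, the tyrosine kinase, was at 51.1 and 60.5 CPM in LT-HSC, 13.9 CPM in ST-HSC 1 and without a read in ST-HSC 2 (3.88 ± 1.5 SE, adjusted p = 0.767). Twist1, a transcriptional repressor known to be induced through Axl, was read in LT-HSC only, at 1.3 and 7.24 CPM. Socs3, a feedback inhibitor of cytokine signalling used by TAM receptors, went the other way, at 0.0765 and 0 CPM in LT-HSC and 2.79 and 7.35 CPM in ST-HSC (adjusted p = 0.767). Twist1 and Socs3 each entered the test only through the group where they were higher.

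**Figure D4:**
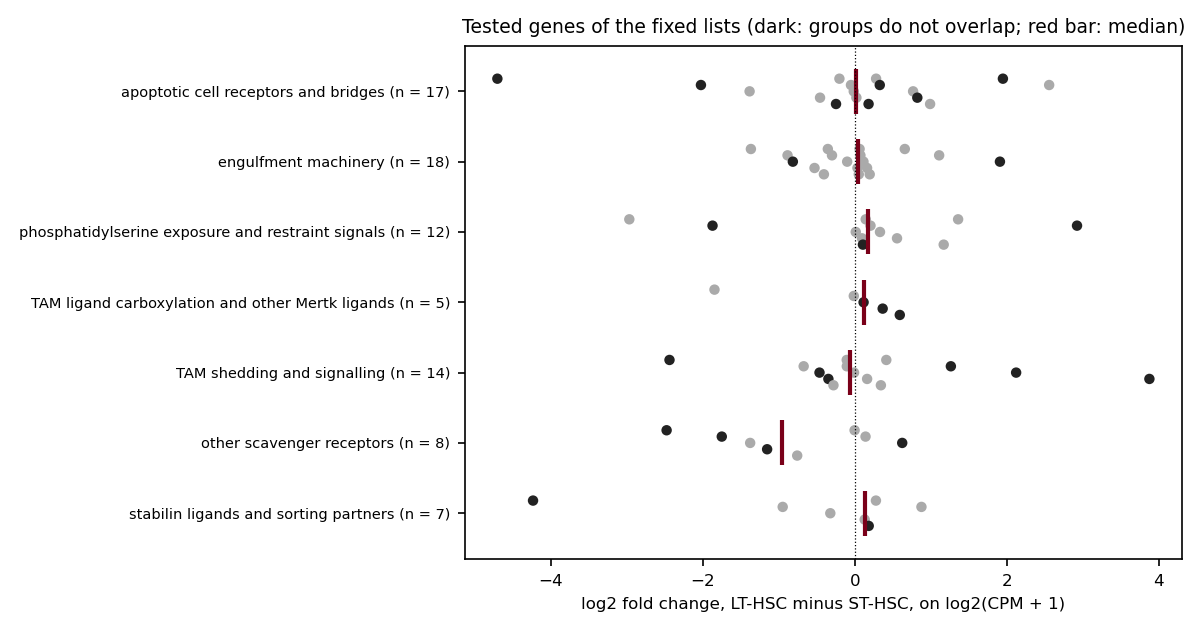
Log2 fold change of LT-HSC minus ST-HSC on the log2(CPM + 1) scale (horizontal axis) for the tested genes of 7 lists around the receptors, with dark points where the groups do not overlap and red bars at the list medians. The medians lie between -0.06 and 0.17 except for the other scavenger receptors, at -0.96.

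Among 16 other scavenger receptors, 11 were read in any library and 8 were tested. By limma 0 passed the adjusted threshold and 1 was lower at an unadjusted p under 0.05 (3.6% of all tested genes), and the median was -0.96. The lower gene, Cd44, the hyaluronan receptor, was at 150 and 270 CPM in LT-HSC against 381 and 527 CPM (-1.15 ± 0.36 SE, adjusted p = 0.723). Cd68, a lysosomal scavenger receptor of macrophages, was at 12.0 and 8.42 CPM against 75.8 and 17.1 CPM (adjusted p = 0.837). Scarf1, which also takes up apoptotic cells, was at 266 and 249 CPM against 224 and 124 CPM (adjusted p = 0.830). Mrc1, the mannose receptor gene, was read in ST-HSC only, at 3.59 and 0.337 CPM, and was not tested.

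The known ligands and sorting partners of the stabilins had 7 tested genes, 0 past the adjusted limma test and 1 lower at an unadjusted p under 0.05 (3.6% of all tested genes), with a median of 0.13. Sparc, an extracellular matrix protein cleared by stabilin-1, was at 24.2 CPM in LT-HSC 1, 0.186 CPM in LT-HSC 2 and 110 and 94.2 CPM in ST-HSC. It was lower in both LT-HSC libraries, as were 17.5% of tested genes, with a log2 fold change of -4.23 ± 1.56 (SE, adjusted p = 0.767). Chid1, a chitinase-like protein sorted by stabilin-1, was at 14.4 and 27.7 CPM against 19.7 and 78.8 CPM, and Gga3, a sorting adaptor gene, at 74.8 and 104 CPM against 102 and 22.0 CPM, both with overlap.

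The genes whose levels were most like those of Mertk and the stabilins were found by Euclidean distance of log2(CPM + 1) over the 4 libraries among tested genes with a symbol. Nearest to Mertk were Mapk8ip1, a JNK scaffold (distance 0.25), Kremen1, a Dickkopf receptor (0.31), and Stard6, a lipid transfer protein (0.43). Mapk8ip1 was at 15.98 and 19.2 CPM in LT-HSC against 0 and 0.0674 CPM. Nearest to Stab2 were Ptn, the growth factor pleiotrophin (0.31), Ccdc99, a mitotic spindle protein (0.56), and Fam125b, a subunit of the ESCRT-I complex (0.59). Ptn was at 0.0765 and 0 CPM in LT-HSC against 25.3 and 18.5 CPM. Nearest to Stab1 were Klf1, the erythroid transcription factor (0.54), Sec22c, a vesicle trafficking protein (0.55), and Prss57, a serine protease of myeloid granules (0.56). Klf1 was at 0.306 and 0.124 CPM in LT-HSC against 27.5 and 9.44 CPM, with ST-HSC 1 above ST-HSC 2 as for Stab1. With 4 libraries, many genes can lie this near by level alone, and the distances describe likeness and nothing more.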

How the data were processed

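Per the labels' protocols, cDNA was made with the SMARTer kit from 2000 sorted cells per library, for Illumina sequencing. TopHat (no version) and mm9 are named in the submitters' processing notes, and the sources used here do not give the counter, annotation or filters. The authors deposited log2 values. Their steps are those of whole reads plus 1 over a library total. Values up to 100 reads were whole within 0.1 read (100% in each library), with the scale set from the same steps. If unread genes had instead been raised to 1 read, each read gene would hold 1 read more, and a gene given as unread could hold 1.

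CPM were computed from these reads and the authors' totals. Genes that reached 1 CPM in 2 or more libraries were tested as log2(CPM + 1) with limma 3.58.1 (trend and robust, statmod 1.5.0, R 4.3.3), with Benjamini-Hochberg adjustment over all 12569 genes at 0.05. This scale understates fold changes of low genes. The test was tried on simulated data that gave every gene the same fixed spread, unlike these libraries, where the spread differed by gene. Those runs do not show how the test performs on these data. The genes and lists were chosen with earlier results of these data known. Named from each list were the 3 tested genes with the smallest unadjusted p. The rule also named tested genes with at least 3 reads in both libraries of 1 group and none in the other. A gene that this rule names is not reported here. Others are named as markers or genes of the sort, or were chosen after their values were seen (Mfge8, Mrc1, Timd2, Edil3). Among the apoptotic cell receptors and bridges, Timd2 (5 and 46 reads) and Edil3 (176 and 10 reads) were read in LT-HSC only. They met these read limits but were not tested, as did Mrc1, read in ST-HSC only. Alternatives were other scaling, filters and pseudocounts, limma-voom, the deposited values as they are, the other reading of unread genes, a replicate block and leaving out each library. As a check for a library deposited more than 1 time only, recovered reads were compared within groups, and they differed beyond read sampling (chi-square over its degrees of freedom of 183 and 144). This does not show that the libraries are separate biological replicates.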

Additional observations from a re-analysis of the deposited data

How the results depend on the processing

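With 2 libraries a group, no gene passed an adjusted p under 0.05 by limma under any of the 13 alternatives, where the smallest adjusted p was 0.552 and the unadjusted calls ran from 394 to 1099. The signs of Mertk and Stab2 could not turn, since each has no read in 1 group, and Stab1 had 1 and 4 reads in LT-HSC. These 3 genes were not tested when at least 1 CPM was asked in all 4 libraries. Their log2 fold changes moved with the pseudocount and scale, from 2.05 to 8.89 for Mertk, from -6.17 to -1.84 for Stab1 and from -9.25 to -2.38 for Stab2, because 1 group is at or near 0. With 1 library left out, the log2 fold change ran from -0.15 to 4.85 for Axl (lowest without ST-HSC 1), from -0.73 to 0.55 for Gas6 (above 0 when LT-HSC 1 or ST-HSC 1 was left out) and from -2.66 to 2.33 for Pros1 (highest without LT-HSC 2, and 0.59 without ST-HSC 1), so each of the 3 changed sign. Pros1 also turned with log2(CPM + 5), to 0.21. The count of genes whose groups do not overlap, 4, ran from 4 to 7 with 1 library left out, where a lone library overlaps less by construction. With the replicate number as a block, 0 genes passed, 875 passed at an unadjusted p under 0.05 and the same count of 4 did not overlap. The deviations of libraries with the same number correlated at 0.05 across genes, so the numbers were not taken to pair the libraries. For Tyro3 and Timd4, tested only without a filter, the adjusted p was 0.841. An unread gene was not detectable at this depth, which allows up to 3 reads.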
